A study of Daucus carota with 18 samples.

Results

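RNA levels were compared in the purple outer phloem (POP) of carrot storage roots between the dark dP2 set and the pale pP set. The 6 libraries of this comparison, 3 of dP2 and 3 of pP, were chosen by their labels from 18 libraries in all. Of the 32113 annotated genes, 18732 reached 1 CPM (counts scaled to the library total) in 3 or more of these libraries and were tested.

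The study took outer phloem, which was purple, and inner phloem, which was not (NPIP), from each of 9 roots in 3 sets, dP1, dP2 and pP, with 3 roots in each. The question addressed here is which genes differ between an outer phloem rich in anthocyanin and one that is poor in it. The dP2 roots belong to the F2 family 60807 and were grown at Hancock, Wisconsin, and their xylem was also purple. The pP roots belong to the F2 family 7280, were grown in El Centro, California, and had no purple xylem. The dP1 roots are dark in the outer phloem as well, but share family and site with pP. All roots were 14 weeks old, came from the field and were not treated, and each library is 1 tissue of 1 plant. Pigment concentration, family, growing site and xylem colour differ together between dP2 and pP and cannot be told apart. F2 plants are segregating individuals and not clones. In bulk tissue, fewer cells of a type and less RNA per cell cannot be told apart either.

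Anthocyanins are purple pigments built from phenylalanine. Phenylalanine ammonia-lyase (PAL) and 4-coumarate-CoA ligase (4CL) belong to the general phenylpropanoid pathway, which also feeds lignin and other phenolics. Chalcone synthase (CHS), chalcone isomerase (CHI) and the flavonoid hydroxylases form the flavonoid skeleton, dihydroflavonol reductase (DFR) and leucoanthocyanidin dioxygenase (LDOX) lead to the coloured anthocyanidin, and sugar transfer and vacuolar transport follow. In carrot, MYB factors encoded on chromosome 3, acting with a bHLH partner, switch on the late steps.

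DCAR_008994, taken here as DcMYB113, was higher in dP2 than in pP, and DcMYB7 was not called. The study's own RT-qPCR primers for both MYB genes are shown as it lists them by identifier. They were not aligned to transcripts here. All bases are in lower case and run 5′ to 3′.

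DCAR_008994 (DcMYB113) forward: ggtggaagaatttgtttgcagaa

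DCAR_008994 (DcMYB113) reverse: atccgcattttctaaaccactcg

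DCAR_010745 (DcMYB7) forward: tgttgttaatgtcgttgccg

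DCAR_010745 (DcMYB7) reverse: ccttccccggaccttatcaaa

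The outer phloem libraries held 8464637 to 8680552 expected counts in dP2 and 6918267 to 9133313 in pP. Between 22579 and 23048 genes had a count in dP2 libraries, against 21129 to 21842 in pP libraries. The 10 most abundant genes of a library took 4.44% to 4.98% of the counts in dP2 and 5.21% to 12.1% in pP. Log2 CPM of libraries of 1 set correlated at r = 0.904 to 0.952 across genes, and of different sets at 0.708 to 0.771, and genes are not independent replicates. Genes of phloem identity and secondary walls among those in the study's tables were taken here as 5 markers, a role the study does not give them. The 3 homologs of APL, a phloem identity factor, summed to 7.61, 12.4 and 5.77 normalised CPM in dP2 outer phloem, against 0.534, 3.35 and 2.61 in pP outer phloem. The same sum was 58.4 to 86.4 in dP2 inner phloem and 11.3 to 14.6 in pP inner phloem. The secondary wall genes IRX15-LIKE and KNAT7 summed to 29.1, 43.7 and 28.4 in dP2 outer phloem, against 13.8, 8.71 and 18.7 in pP outer phloem. Both sums were thus higher in every dP2 than in every pP outer phloem library, and their part in the differences below was not tested.

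The sets differed at a large share of genes. By edgeR's quasi-likelihood F test at a Benjamini-Hochberg false discovery rate (FDR) under 0.05, 5213 of 18732 genes (27.8%) were called. Of these, 3017 (16.1%) were higher and 2196 (11.7%) lower in dP2 than in pP. The median log2 fold change (log2FC) of genes called higher was 2.41 and that of genes called lower was −1.33, while the median of all genes tested was −0.02. A log2FC of at least 3 was reached by 1152 of the higher genes, and one of at most −3 by 274 of the lower genes. The 3 dP2 values lay entirely above or below the 3 pP values in 8866 genes (47.3%), which included 3003 of the genes called higher and 2185 of those called lower. Nearly all called genes were thus free of overlap, so its absence adds little to a call. Leaving out dP2 replicate 2 left 1995 higher and 1040 lower calls, leaving out dP2 replicate 3 left 1223 lower calls, and leaving out pP replicate 3 left 1051 lower calls. In all 6 fits that left out 1 library, 1715 of the higher and 809 of the lower genes stayed called.

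**Figure D1:**
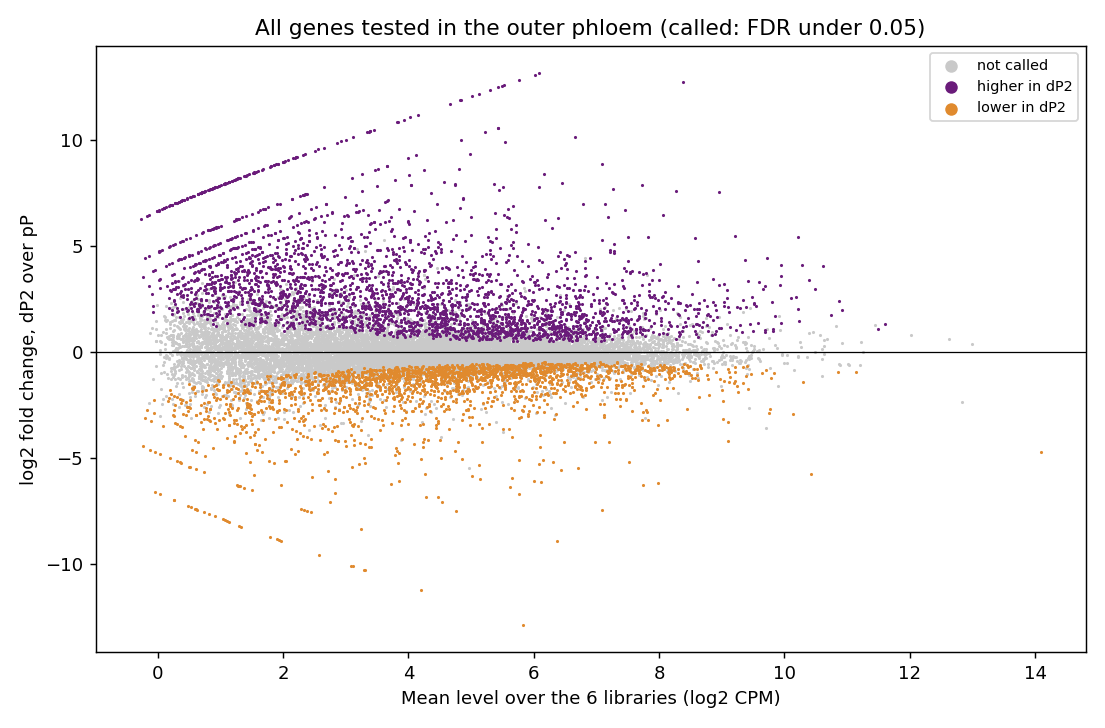
Log2FC of dP2 over pP outer phloem (vertical axis) against mean log2 CPM (horizontal axis) for the 18732 tested genes, with the called genes coloured by direction. The 3017 genes called higher extend further from 0 than the 2196 called lower, with medians of 2.41 and −1.33.

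Some called genes had no counts in the outer phloem of 1 of the sets compared. Among the genes called higher, 154 had 0 counts in all pP outer phloem libraries, and 139 of them had a count in dP2 inner phloem. Of the 154 genes, 109 had 0 counts in pP inner phloem too, 90 had 0 counts in dP1 outer phloem, and 66 had none in the inner phloem of pP or in either tissue of dP1. Among the genes called lower, 29 had 0 counts in all dP2 outer phloem libraries, and 20 of these had 0 counts in dP2 inner phloem. Of the 29 genes, 28 had a count in dP1 outer phloem and 29 in pP inner phloem.

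The genes with the largest differences included several with no description in the sources used here. DCAR_019711 had 157, 182 and 75.7 normalised CPM in dP2 and 0 in each pP library, or 3358 counts against 0, and was at least 1123-fold higher when pP is set at 3 counts over the group. DCAR_023498 had 169.6, 78.6 and 149.7 CPM in dP2 and 0 in pP, or 3268 counts against 0, and was at least 1093-fold higher. In the other direction, DCAR_013549 had 0 CPM in dP2 and 132, 97.7 and 108 CPM in pP, or 0 counts against 2745, and was at least 912-fold lower. It had 187, 111 and 88.4 CPM in dP1 outer phloem, so its absence was seen in dP2 and not in the other dark set. DCAR_032425 had 0 CPM in dP2 and 25.1, 58.8 and 23.9 CPM in pP, and was at least 284-fold lower. The most abundant gene of pP outer phloem, DCAR_024247, had 2132, 1009 and 693 CPM in dP2 and 62432, 14441 and 22721 CPM in pP, with a log2FC of −4.75 ± 0.77 (SE, edgeR FDR = 0.00610). It was chosen after its values were seen. With this gene left out of the fit 3014 genes were called higher and 2194 lower.

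The clearest difference in the anthocyanin pathway was at its entry. All 5 PAL and 4CL genes on the list were higher in dP2 by edgeR's test, with a median log2FC of 3.16, beside 16.1% of all genes called higher. The study picked this and the other pathway lists from these same libraries, for differences between outer and inner phloem, so they are not independent evidence of a direction.

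PAL makes cinnamic acid from phenylalanine and is the first enzyme of the pathway. The PAL gene DCAR_020833 had 1345, 2545 and 1736 CPM in dP2, against 154, 98.1 and 198 in pP (log2FC 3.59 ± 0.37 SE, FDR = 0.00176). A further PAL gene, DCAR_014989, had 688, 1354 and 699.6 CPM in dP2, against 53.7, 137 and 105 in pP (log2FC 3.16, 95% interval 2.11 to 4.20, FDR = 0.00393). DCAR_017697, also PAL, had 536, 1036 and 613 CPM in dP2, against 49.3, 227 and 112 in pP (log2FC 2.44 ± 0.56 SE, FDR = 0.0189). The groups did not overlap in any of the 3 PAL genes, as in 47.3% of all genes tested. In each of the 3 the highest value was that of dP2 replicate 2. The call of DCAR_017697 was lost without pP replicate 3 (FDR = 0.0705) and without dP2 replicate 2 (FDR = 0.0619). Per unit of length, DCAR_020833 was the most abundant of the 5 entry genes in dP2, at a mean of 785 TPM (transcript abundance scaled by gene length and library size), against 67.3 TPM in pP.

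The enzyme 4CL activates coumaric acid with coenzyme A, ready for chalcone formation. The 4CL gene DCAR_025617 had 74.1, 137 and 71.4 CPM in dP2, against 3.74, 6.97 and 3.03 in pP, the largest log2FC of the 5 (4.31, 95% interval 3.30 to 5.33, FDR = 0.00161). DCAR_021385, also 4CL, had 540.1, 1155 and 665 CPM in dP2, against 149, 214 and 228 in pP (log2FC 1.94 ± 0.33 SE, FDR = 0.00709). Neither 4CL gene overlapped between the sets, as was so for 47.3% of all genes tested.

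The same 5 genes were set beside the inner phloem, which is not purple in any set. There 4 of 5 were called higher in dP2, where 15.6% of all genes tested were higher. DCAR_014989 had 19.2, 37.5 and 269 CPM in dP2 inner phloem, against 0.580, 1.58 and 0.973 in pP inner phloem (log2FC 6.66, FDR = 0.0101). The fifth gene, DCAR_020833, had 43.5, 102 and 719 CPM in dP2 inner phloem, against 1.39, 1.37 and 23.5 in pP inner phloem (log2FC 5.03, FDR = 0.0544). In both genes dP2 replicate 3 stood above the other 2 inner phloem libraries of its set. In the outer phloem of dP1, compared with the same pP libraries, none of the 5 was called by edgeR, 1 had an unadjusted p under 0.05 and DESeq2 called 0. DCAR_020833, for example, had 92.8, 72.2 and 60.6 CPM in dP1 outer phloem, and DCAR_025617 had 6.71, 3.45 and 2.68.

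The flavonoid genes that follow were not called. Of the 5 CHS, CHI, flavanone 3-hydroxylase (F3H) and flavonoid 3′-hydroxylase (F3′H) genes, edgeR called 0, none had an unadjusted p under 0.05, the likelihood ratio test called 0 and DESeq2 called 1. CHS, which builds the chalcone skeleton, is DCAR_030786. It had 195, 371 and 476 CPM in dP2, against 87.2, 492 and 192 in pP (log2FC 0.38, 95% interval −1.07 to 1.83, FDR = 0.673), and pP replicate 2 was the highest of the 6. CHI, DCAR_027694, closes the flavanone ring, and had 12.1, 38.0 and 85.1 CPM in dP2, against 8.68, 43.4 and 15.4 in pP (log2FC 0.95 ± 0.79 SE, FDR = 0.401). Both genes overlapped between the sets.

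F3H hydroxylates flavanones, and its gene DCAR_009483 was the one that DESeq2 called. It had 89.1, 167 and 225 CPM in dP2, against 3.07, 78.4 and 16.0 in pP (log2FC 2.26, 95% interval −0.07 to 4.58, edgeR FDR = 0.131). The groups did not overlap, but pP replicate 2 lay close to the lowest dP2 value. Without pP replicate 2 the log2FC was 4.01 (FDR = 0.0160), and DESeq2 gave an adjusted p of 0.0321. The other F3H gene, DCAR_010572 (V1.0 genome, chromosome 3, 25684635 to 25689703), had 54.8, 139 and 85.7 CPM in dP2, against 188, 75.3 and 91.0 in pP (log2FC −0.40 ± 0.44 SE, FDR = 0.533). In dP1 outer phloem it had 5.52, 6.46 and 10.5 CPM (dP1 over pP, log2FC −3.98, FDR = 0.0412). F3′H, which adds the hydroxyl group that distinguishes cyanidin, is DCAR_014032 and had 20.9, 31.7 and 50.6 CPM in dP2, against 34.99, 38.2 and 21.5 in pP (log2FC 0.07, FDR = 0.899).

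The late enzymes gave the same picture. Of the 5 genes for DFR, LDOX and sugar transfer, edgeR called 0 with none at an unadjusted p under 0.05, and DESeq2 and the likelihood ratio test called 0 each. DFR, DCAR_021485, had 28.6, 71.5 and 107 CPM in dP2, against 5.61, 70.1 and 17.5 in pP (log2FC 1.10, 95% interval −0.93 to 3.14, FDR = 0.374). LDOX, DCAR_006772, had 111, 173 and 227 CPM in dP2, against 22.2, 292 and 99.5 in pP (log2FC 0.25, FDR = 0.834). In both, pP replicate 2 lay within or above the dP2 range and the other 2 pP libraries lay below it. Without pP replicate 2 the log2FC of DFR was 2.52 (FDR = 0.0447).

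The galactosyltransferase gene DcUCGalT1 and the xylosyltransferase gene DcUCGXT1 attach the sugars of carrot anthocyanins. DcUCGalT1, DCAR_009912, had 82.7, 152 and 192 CPM in dP2, against 22.04, 161 and 65.3 in pP (log2FC 0.73, FDR = 0.439). DcUCGXT1, DCAR_021269, had 39.7, 42.9 and 48.7 CPM in dP2, against 5.21, 66.1 and 19.6 in pP (log2FC 0.48, FDR = 0.659). The UDP-glycosyltransferase gene DCAR_019074 had 55.9, 52.4 and 34.97 CPM in dP2, against 22.2, 16.9 and 44.1 in pP (log2FC 0.73 ± 0.39 SE, FDR = 0.197). All 3 overlapped between the sets. Without pP replicate 3, its highest pP library, DCAR_019074 had a log2FC of 1.25 (FDR = 0.0430).

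The 4 transport genes were not called by edgeR, DESeq2 or the likelihood ratio test (0 each), and none had an unadjusted p under 0.05. The glutathione S-transferase gene DcGST1, DCAR_003401, belongs to a family that helps carry anthocyanins to the vacuole. It had 56.7, 97.6 and 128 CPM in dP2, against 4.01, 75.3 and 20.9 in pP (log2FC 1.45, 95% interval −0.62 to 3.51, FDR = 0.256). Its pP replicate 2 value again lay within the dP2 range. The MATE transporter gene DCAR_031151 had 11.2, 28.7 and 26.9 CPM in dP2, against 6.94, 15.9 and 7.20 in pP (log2FC 1.10 ± 0.47 SE, FDR = 0.124). Without pP replicate 2, DcGST1 had a log2FC of 2.86 (FDR = 0.0336) and DCAR_031151 one of 1.60 (FDR = 0.0452). The MATE gene DCAR_010718 had 9.29, 12.2 and 13.7 CPM in dP2, against 6.54, 9.25 and 4.17 in pP, without overlap but not called (log2FC 0.77 ± 0.35 SE, FDR = 0.146). The ABC-C gene DCAR_010639 had 41.4, 43.7 and 29.0 CPM in dP2, against 31.4, 28.5 and 50.8 in pP (log2FC −0.01 ± 0.28 SE, FDR = 0.986), and the sign of that value turned under other size factors.

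**Figure D2:**
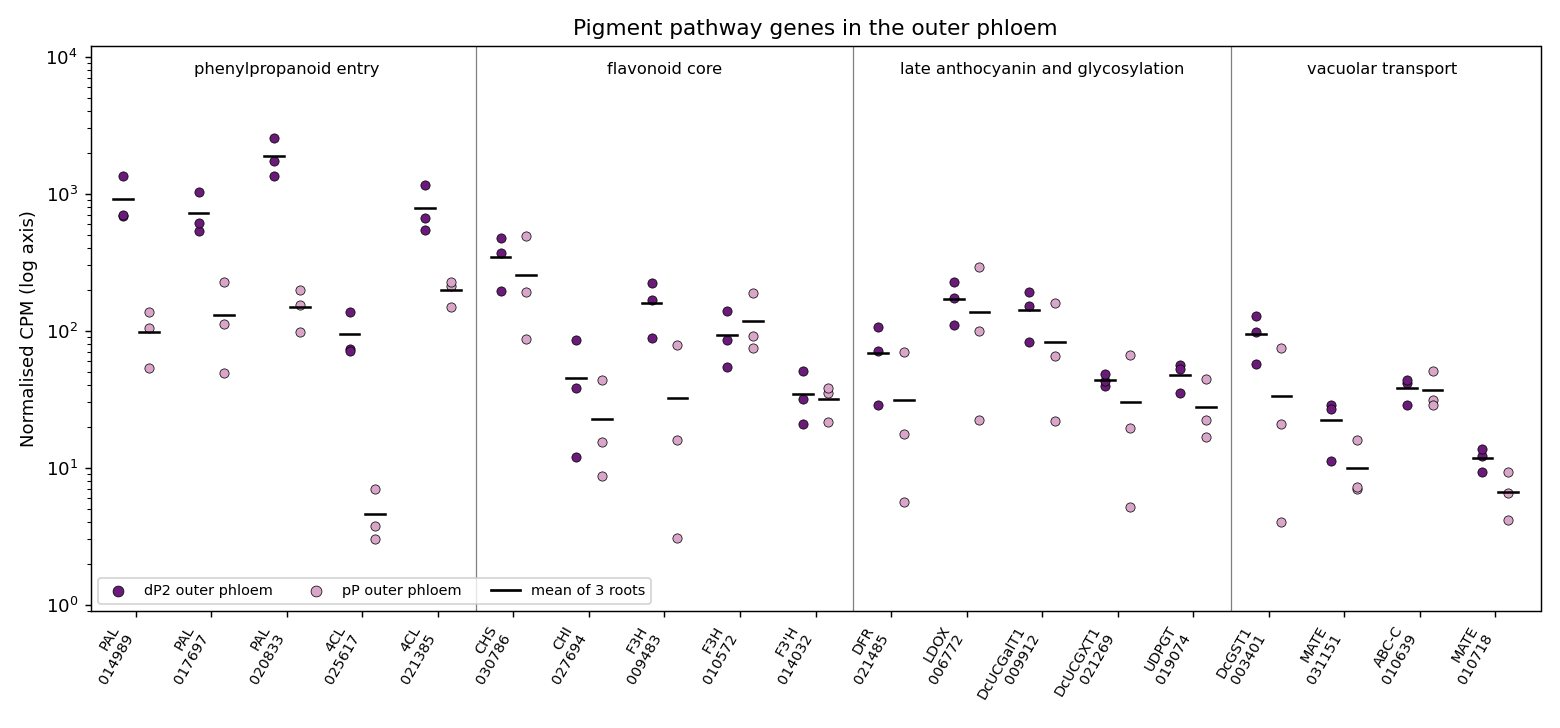
Normalised CPM (vertical log axis) of the pathway genes in the outer phloem, grouped by step, with dP2 points dark and pP points light, 1 point for each root and a line at the mean of 3 roots. All dP2 points lie above all pP points in the 5 PAL and 4CL genes, whereas in CHS, LDOX and DcUCGXT1 the highest point is that of pP replicate 2.

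The pP libraries therefore differed among themselves at the flavonoid steps. From CHS to sugar transfer pP replicate 2 was above the other pP libraries in CHS, CHI, F3H DCAR_009483, F3′H, DFR, LDOX, DcUCGalT1 and DcUCGXT1, and not in F3H DCAR_010572 or DCAR_019074. The dark dP1 set varied more widely still, with 33.3, 4444 and 788 CPM of CHS DCAR_030786 and 33.0, 1976 and 606 CPM of LDOX DCAR_006772 in its outer phloem. The median log2FC of dP1 over pP was 2.77 for the 5 flavonoid genes and 1.95 for the 5 late genes. For dP2 over pP these medians were 0.38 and 0.73. In dP1 edgeR called 1 flavonoid gene, lower, and 0 late genes, beside 0.181% of all genes tested. Of the flavonoid genes 3 had an unadjusted p under 0.05, and of the late genes 0. The actin gene DCAR_030967, a reference gene of the study, had 530.3, 565 and 746 CPM in dP2, against 406, 581 and 470.2 in pP (log2FC 0.29 ± 0.22 SE, FDR = 0.369).

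Of 10 listed regulators, 2 (20%) were called higher in dP2 by edgeR and none lower, with 3 at an unadjusted p under 0.05. That share is near the 16.1% of all genes tested that were called higher. Both called genes are MYB factors. DcMYB113, an activator of anthocyanin genes in carrot, had 3.26, 3.82 and 8.17 CPM in dP2, against 0, 0 and 0.522 in pP, or 125 counts against 5. Its log2FC was 4.55 (95% interval 2.24 to 6.86, FDR = 0.0155), and the sets did not overlap. Without dP2 replicate 3, its highest library, the log2FC was 4.04 and the FDR 0.0522. Its expected counts in dP2 were not whole numbers, so part of its reads was shared with similar sequence. In the inner phloem DcMYB113 had 1.12, 4.66 and 1.82 CPM in dP2, against 0, 0.105 and 0 in pP (log2FC 5.61, FDR = 0.00997). It had 0.132, 0.446 and 0.366 CPM in the dark dP1 outer phloem. The name rests on the identifier DCAR_008994 that the study lists beside the primers shown above, and no primer was aligned to a transcript here. The study's text gives DCAR_008894 for this gene, an identifier that differs by 1 digit. DCAR_008894 was looked at after these values were seen, and had 11.7, 12.9 and 6.97 CPM in dP2, against 9.62, 8.58 and 7.83 in pP (log2FC 0.23 ± 0.31 SE, FDR = 0.610).

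The other called regulator was DCAR_003717 (V1.0 genome, chromosome 1, 41385308 to 41386955), described as an anthocyanin regulatory C1 protein. The study's tree placed this gene among MYB factors that activate the proanthocyanidin and flavonol pathways. It had 163, 60.5 and 39.2 CPM in dP2, against 14.4, 5.23 and 9.71 in pP (log2FC 3.12, 95% interval 1.63 to 4.61, FDR = 0.0126). The sets did not overlap, and without pP replicate 3 the FDR was 0.0501. It was not called in the inner phloem (log2FC 1.22, FDR = 0.318), and dP1 outer phloem had 43.3, 9.80 and 52.2 CPM.

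DcMYB7, an activator of anthocyanin genes in carrot roots, and DcMYB6, a further MYB gene that the study places in the P3 region of chromosome 3, were not called. DcMYB7, DCAR_010745 (27816911 to 27819103 on chromosome 3), had 2.41, 2.93 and 2.40 CPM in dP2, against 2.67, 4.56 and 2.40 in pP (log2FC −0.36, 95% interval −1.27 to 0.55, FDR = 0.520). It had 2.63, 37.0 and 14.9 CPM in dP1 outer phloem, where 2 of 3 libraries stood above all those of dP2 and pP. DcMYB6, DCAR_000385, had 4.35, 3.57 and 6.49 CPM in dP2, against 1.60, 8.04 and 1.25 in pP (log2FC 0.37 ± 0.72 SE, FDR = 0.735). DcbHLH3, DCAR_002739, the bHLH partner, had 9.90, 16.7 and 15.9 CPM in dP2, against 6.14, 18.6 and 5.11 in pP (log2FC 0.46, FDR = 0.543), and 14.2, 158 and 43.2 CPM in dP1. Without pP replicate 2, DcMYB6 had a log2FC of 1.70 (FDR = 0.0475) and DcbHLH3 one of 1.28 (FDR = 0.0423), so that 4 regulators were called.

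**Figure D3:**
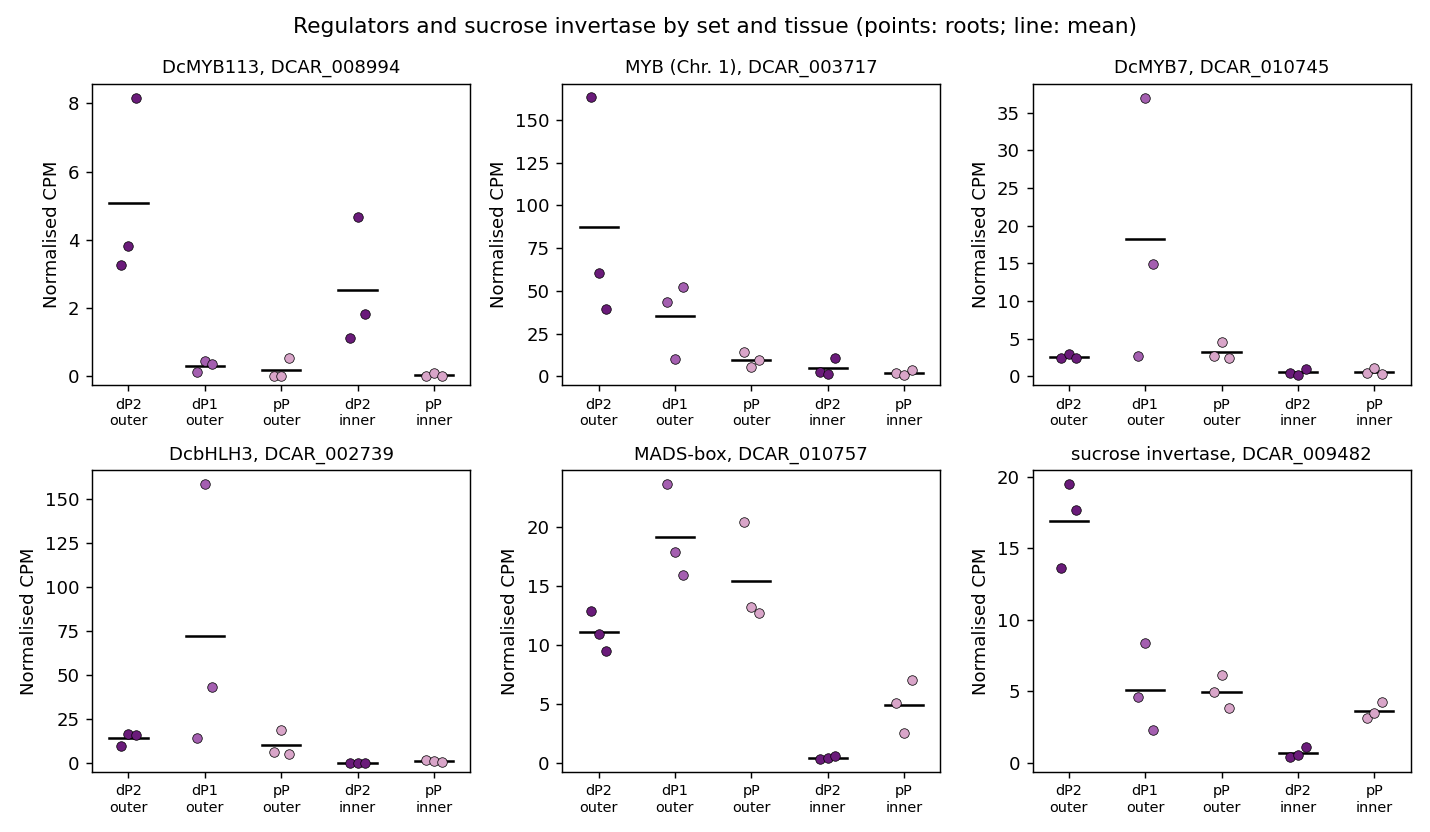
Normalised CPM (vertical linear axis, different in each panel) of DcMYB113, DCAR_003717, DcMYB7, DcbHLH3, the MADS-box gene DCAR_010757 and sucrose invertase DCAR_009482 in dP2, dP1 and pP outer phloem and in dP2 and pP inner phloem, with 1 point for each root and a line at the mean. DcMYB113 and DCAR_003717 show no overlap between dP2 and pP outer phloem, while DcMYB7 has 2.40 to 2.93 CPM in dP2 and 2.40 to 4.56 CPM in pP.

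Of the other regulators, the ethylene response factor gene DcERF1, DCAR_016339, had 19.9, 14.02 and 10.8 CPM in dP2, against 2.80, 9.38 and 6.57 in pP. The sets did not overlap, but it was not called by edgeR (log2FC 1.21 ± 0.46 SE, FDR = 0.0952), whereas DESeq2 called it (adjusted p = 0.0436). ERF109-like DCAR_007860 had 3.86, 14.7 and 8.41 CPM in dP2, against 4.14, 2.68 and 5.11 in pP (log2FC 1.11, FDR = 0.154). DCAR_028312, a MYB gene of chromosome 8, had 44.5, 51.2 and 23.9 CPM in dP2, against 11.8, 37.7 and 25.6 in pP (log2FC 0.63, FDR = 0.340). Myb-related 330, DCAR_001079, had a log2FC of 0.44 (FDR = 0.398). None of these 4 was called by edgeR.

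The MADS-box gene DCAR_010757 (chromosome 3, 28112767 to 28119898) had 12.9, 10.96 and 9.49 CPM in dP2 outer phloem, against 20.4, 13.3 and 12.7 in pP outer phloem. It was not called there (log2FC −0.52, 95% interval −1.18 to 0.13, FDR = 0.202). In inner phloem it had 0.336, 0.444 and 0.568 CPM in dP2, against 5.11, 2.52 and 7.06 in pP, and was lower in dP2 (log2FC −3.42, FDR = 0.00613). The difference between both tissues was itself past the threshold (2.92 ± 0.56 SE, FDR = 0.0261). In the test of that difference over all genes, 224 of 20253 (1.11%) were called. With its sign kept, the log2FC of dP2 over pP was higher in outer than in inner phloem in 152 (0.751%) and lower in 72 (0.356%). A higher signed value, as in DCAR_010757, need not be a larger difference. The total called ranged from 54 to 278 with 1 library left out, the lowest without pP outer phloem replicate 3, and DESeq2 called 816. The call of DCAR_010757 was lost in 7 of 12 such fits (FDR = 0.0512 to 0.0732).

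A sucrose invertase gene, DCAR_009482, followed the same pattern further. Invertases split sucrose into glucose and fructose. It had 13.6, 19.5 and 17.7 CPM in dP2 outer phloem, against 4.94, 6.16 and 3.86 in pP outer phloem (log2FC 1.71, 95% interval 1.04 to 2.38, FDR = 0.00660). In inner phloem the order turned, with 0.449, 0.555 and 1.14 CPM in dP2, against 3.13, 3.47 and 4.26 in pP (log2FC −2.34, FDR = 0.0123). The outer minus inner difference was 4.08 ± 0.60 (SE, FDR = 0.00788) and stayed called in all 12 fits without 1 library. The sets did not overlap in either tissue, and dP1 outer phloem had 4.603, 8.36 and 2.32 CPM.

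Chromosome 3 carries the P1, P3 and RIPAP regions that the study mapped for root pigmentation. The lists of the study for these regions hold genes that differed between outer and inner phloem of these same libraries, dP2 included, so they were chosen partly on dP2 outer phloem values and are not independent evidence of a direction. In P1 all 3 genes that differed in each of the study's tissue comparisons were called higher in dP2, beside 16.1% of all genes tested. They stayed called when any 1 library was left out. GDPDL2 DCAR_009118 (4516578 to 4518462), annotated as a glycerophosphodiester phosphodiesterase-like protein, had 43.7, 50.6 and 44.1 CPM in dP2, against 2.94, 2.95 and 7.93 in pP (log2FC 3.25 ± 0.42 SE, FDR = 0.00316). Its neighbour DCAR_009117 (4513181 to 4515836), with the same annotation, had 33.8, 48.8 and 24.2 CPM in dP2, against 9.35, 5.23 and 10.96 in pP (log2FC 2.01 ± 0.37 SE, FDR = 0.00933). Nudix hydrolase 19, DCAR_009201 (5345986 to 5350047), had 143, 189 and 119.6 CPM in dP2, against 37.9, 24.7 and 38.8 in pP (log2FC 2.10 ± 0.26 SE, FDR = 0.00276). None of the 3 overlapped between the sets, as was so for 47.3% of all genes tested. The log2FC in inner phloem was 3.96 for DCAR_009118 (FDR = 0.0157) and 2.27 for DCAR_009201 (FDR = 0.0162). In 1 fit of all 18 libraries DCAR_009117 had an FDR of 0.0613.

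Of the 11 genes listed in the same way for P3, 2 (18.2%) were called higher and none lower, with a median log2FC of 0.77. That share is near the 16.1% of all genes tested that were called higher. Ribose-phosphate pyrophosphokinase 4, DCAR_010690 (27167233 to 27168756), makes a precursor of nucleotides and had 7.73, 15.2 and 7.81 CPM in dP2, against 0.668, 2.95 and 1.67 in pP (log2FC 2.48 ± 0.56 SE, FDR = 0.0185). Cationic peroxidase 1, DCAR_010688 (27128468 to 27129926), had 39.0, 48.6 and 29.2 CPM in dP2, against 6.01, 14.1 and 3.34 in pP (log2FC 2.27 ± 0.52 SE, FDR = 0.0183). Neither overlapped, but neither call held in every fit with 1 library left out. Over those fits the log2FC ranged from 2.09 to 3.04 for DCAR_010690 and from 1.91 to 3.02 for DCAR_010688. The call of DCAR_010690 was lost without pP replicate 3 (FDR = 0.0675) or dP2 replicate 2 (FDR = 0.0673), and that of DCAR_010688 without pP replicate 1 (FDR = 0.0518) or dP2 replicate 2 (FDR = 0.0627). Without pP replicate 2, 5 of the 11 were called higher, and without pP replicate 1 or dP2 replicate 2, 1 was.

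Of the 8 genes listed in the same way for RIPAP outside P3, 7 were tested, 1 (14.3%) was called higher and 1 (14.3%) lower. These shares are near the 16.1% higher and 11.7% lower of all genes tested. Mechanosensitive ion channel protein 10, DCAR_010498 (24144232 to 24148933), had 45.9, 58.0 and 27.5 CPM in dP2, against 6.41, 9.25 and 3.76 in pP (log2FC 2.71 ± 0.42 SE, FDR = 0.00525). UNC93-like protein 2, DCAR_010563 (25451216 to 25453926), had 15.7, 16.3 and 11.3 CPM in dP2, against 71.05, 42.6 and 38.8 in pP (log2FC −1.87 ± 0.30 SE, FDR = 0.00594). The sets did not overlap in either gene. The second gene was lower in dP2 inner phloem too (log2FC −2.64, FDR = 0.00431), and dP1 outer phloem had 68.5, 53.9 and 60.8 CPM.

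The longer lists of the study hold genes called in any of its tissue comparisons, and their counts are a description alone. P1 had 13 higher and 4 lower of 52 tested, or 25% and 7.69%. RIPAP had 35 higher and 6 lower of 97, or 36.1% and 6.19%, and P3, which lies within it, had 26 higher and 2 lower of 55, or 47.3% and 3.64%. The median log2FC was 0.32 in P1, 0.66 in RIPAP and 1.44 in P3, and that of all genes tested was −0.02, with 16.1% higher and 11.7% lower. Without pP replicate 3 the P3 list had 18 higher calls, without dP2 replicate 2 it had 15 and without dP2 replicate 3 it had 17. Without dP2 replicate 2 the RIPAP list had 22 higher and 3 lower calls.

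Of 71 genes that the study listed as transcription factors differing between its tissues, 68 were tested, 24 (35.3%) were higher and 5 (7.35%) lower in dP2, beside 16.1% and 11.7% of all genes tested. These genes too were chosen on the same libraries. Some of them carry annotations other than transcription factor. Fasciclin-like arabinogalactan protein 10 (DCAR_016030) and cytochrome P450 71D11 (DCAR_012878), for example, are among the higher calls. Their median log2FC was 0.72 and 50 of 68 were positive. By family, MYB had 6 higher and 2 lower of 17, WRKY 4 higher and 1 lower of 12, bHLH 1 higher of 7 (14.3%) and ERF 1 higher of 6 (16.7%), the last 2 shares being near that of all genes. Without pP replicate 3 the MYB family had 3 higher calls. Its lower calls numbered 0 by edgeR without any 1 of the 3 pP libraries or without dP2 replicate 3, with 2 or 3 at an unadjusted p under 0.05 in those fits. For the 2 NAC genes edgeR, the likelihood ratio test and DESeq2 called 0, and neither had an unadjusted p under 0.05. Of the 29 calls, 16 remained whichever library was left out, and the 5 lower calls were the less steady, with 0 without pP replicate 3 (edgeR, 6 lower genes at an unadjusted p under 0.05) and 1 without dP2 replicate 3.

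The largest log2FC of the list was that of bHLH041, DCAR_011967, with 101, 89.1 and 70.3 CPM in dP2, against 1.34, 1.74 and 5.32 in pP (log2FC 4.87 ± 0.53 SE, FDR = 0.00198). The homeodomain-leucine zipper gene HAT7, DCAR_017713, had 8.33, 11.2 and 6.13 CPM in dP2, against 0, 0.536 and 0.313 in pP (log2FC 4.79 ± 0.72 SE, FDR = 0.00482). The zinc finger gene DOF4.6, DCAR_006979, had 8.93, 17.8 and 9.01 CPM in dP2, against 0.267, 0.938 and 0.313 in pP (log2FC 4.49 ± 0.58 SE, FDR = 0.00316). HAT7, DOF4.6 and ASIL2 had higher values in every inner than in every outer phloem library of their set, as did the sum of the APL homologs. HAT7 had 46.3, 53.5 and 78.7 CPM in dP2 inner phloem, against 3.02, 11.98 and 7.06 in pP inner phloem, and DOF4.6 had 75.3, 71.7 and 92.3 in dP2, against 4.99, 3.47 and 2.43 in pP. Trihelix factor ASIL2, DCAR_022336, had 33.0, 16.4 and 20.3 CPM in dP2 outer phloem, against 0.935, 2.01 and 1.15 in pP outer phloem (log2FC 4.04 ± 0.44 SE, FDR = 0.00196). In inner phloem ASIL2 had 99.0, 71.6 and 54.7 CPM in dP2, against 8.82, 6.20 and 2.55 in pP. None of these 4 genes overlapped between the sets in the outer phloem, where 47.3% of all genes tested did not.

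Of 4 listed genes annotated as Myb-related protein Myb4, 3 were higher in dP2. In the study's trees these 4 genes did not group with MYB factors known from the flavonoid pathway. The share called higher was 35.3% over the listed transcription factors and 16.1% over all genes tested. DCAR_012548 had 88.6, 108 and 77.7 CPM in dP2, against 4.01, 5.90 and 18.99 in pP (log2FC 3.18 ± 0.57 SE, FDR = 0.00822). DCAR_018481 had 166, 236 and 176 CPM in dP2, against 9.21, 28.8 and 37.0 in pP (log2FC 2.89 ± 0.48 SE, FDR = 0.00672). Neither overlapped, and both were higher in inner phloem too (log2FC 6.54 and 3.95). DCAR_013728, looked at after its values were seen, had 19.3, 18.4 and 8.17 CPM in dP2, against 2.40, 5.90 and 3.65 in pP (log2FC 1.89 ± 0.47 SE, FDR = 0.0245). It did not overlap, but its call was lost without pP replicate 1 or 3 or dP2 replicate 1 or 2 (FDR = 0.0582 to 0.0818). The fourth, DCAR_030745, was not called (log2FC 0.47, FDR = 0.361). MYB86, DCAR_021580, went the other way, with 1.45, 11.7 and 4.69 CPM in dP2, against 21.1, 23.5 and 47.3 in pP (log2FC −2.42 ± 0.70 SE, FDR = 0.0403). Its call was kept without dP2 replicate 2 and lost without any other library (FDR = 0.0513 to 0.123). In dP1 outer phloem it had 7.76, 2.01 and 4.88 CPM.

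WRKY factors act in defence, senescence and phosphate responses. WRKY75, DCAR_024663, had 64.0, 81.7 and 43.1 CPM in dP2, against 4.41, 2.41 and 7.10 in pP (log2FC 3.69 ± 0.44 SE, FDR = 0.00239). WRKY6 DCAR_004233 had 407, 508 and 481 CPM in dP2, against 60.4, 60.8 and 102 in pP (log2FC 2.59 ± 0.26 SE, FDR = 0.00170). WRKY65, DCAR_005143, had 22.5, 25.1 and 27.04 CPM in dP2, against 5.48, 8.44 and 6.78 in pP (log2FC 1.80 ± 0.24 SE, FDR = 0.00348). These 3 genes did not overlap between the sets, as was so for 47.3% of all genes tested. A further gene annotated as WRKY6, DCAR_019267, was lower, with 23.4, 6.63 and 11.4 CPM in dP2, against 53.2, 37.8 and 53.2 in pP (log2FC −1.84 ± 0.45 SE, FDR = 0.0244). Its call was lost without pP replicate 1 (FDR = 0.0544), pP replicate 3 (FDR = 0.0738) or dP2 replicate 3 (FDR = 0.0844).

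The drought-response factor DREB2C, DCAR_015358, had 26.3, 39.0 and 32.8 CPM in dP2, against 3.34, 6.16 and 5.22 in pP (log2FC 2.68 ± 0.30 SE, FDR = 0.00203). KNAT7, DCAR_008430, a regulator of secondary walls in Arabidopsis and 1 of the marker genes above, had 9.78, 14.4 and 6.61 CPM in dP2, against 3.87, 3.22 and 2.61 in pP (log2FC 1.61 ± 0.38 SE, FDR = 0.0208). Both were free of overlap, but the call of KNAT7 was lost without pP replicate 3 (FDR = 0.0741) or dP2 replicate 2 (FDR = 0.0755).

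The remaining lower genes of the list changed less. The CCCH zinc finger gene C3H17, DCAR_000675, had 19.8, 13.0 and 7.69 CPM in dP2, against 24.8, 57.8 and 43.5 in pP (log2FC −1.68 ± 0.43 SE, FDR = 0.0281). Its call was lost without pP replicate 2 or 3 or dP2 replicate 2 or 3 (FDR = 0.0670 to 0.0946). The demethylase-like gene JMJD5, DCAR_002041, had 10.1, 7.39 and 10.6 CPM in dP2, against 16.8, 25.2 and 24.4 in pP (log2FC −1.29 ± 0.27 SE, FDR = 0.0134), and an FDR of 0.0521 without pP replicate 3. AS1, DCAR_009227, a MYB factor of leaf patterning in Arabidopsis, had 6.16, 4.33 and 5.53 CPM in dP2, against 12.02, 9.92 and 10.02 in pP (log2FC −1.04 ± 0.27 SE, FDR = 0.0303). The sets did not overlap in these genes, but the AS1 call was kept without dP2 replicate 1 and lost without any other library (FDR = 0.0559 to 0.0997).

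**Figure D4:**
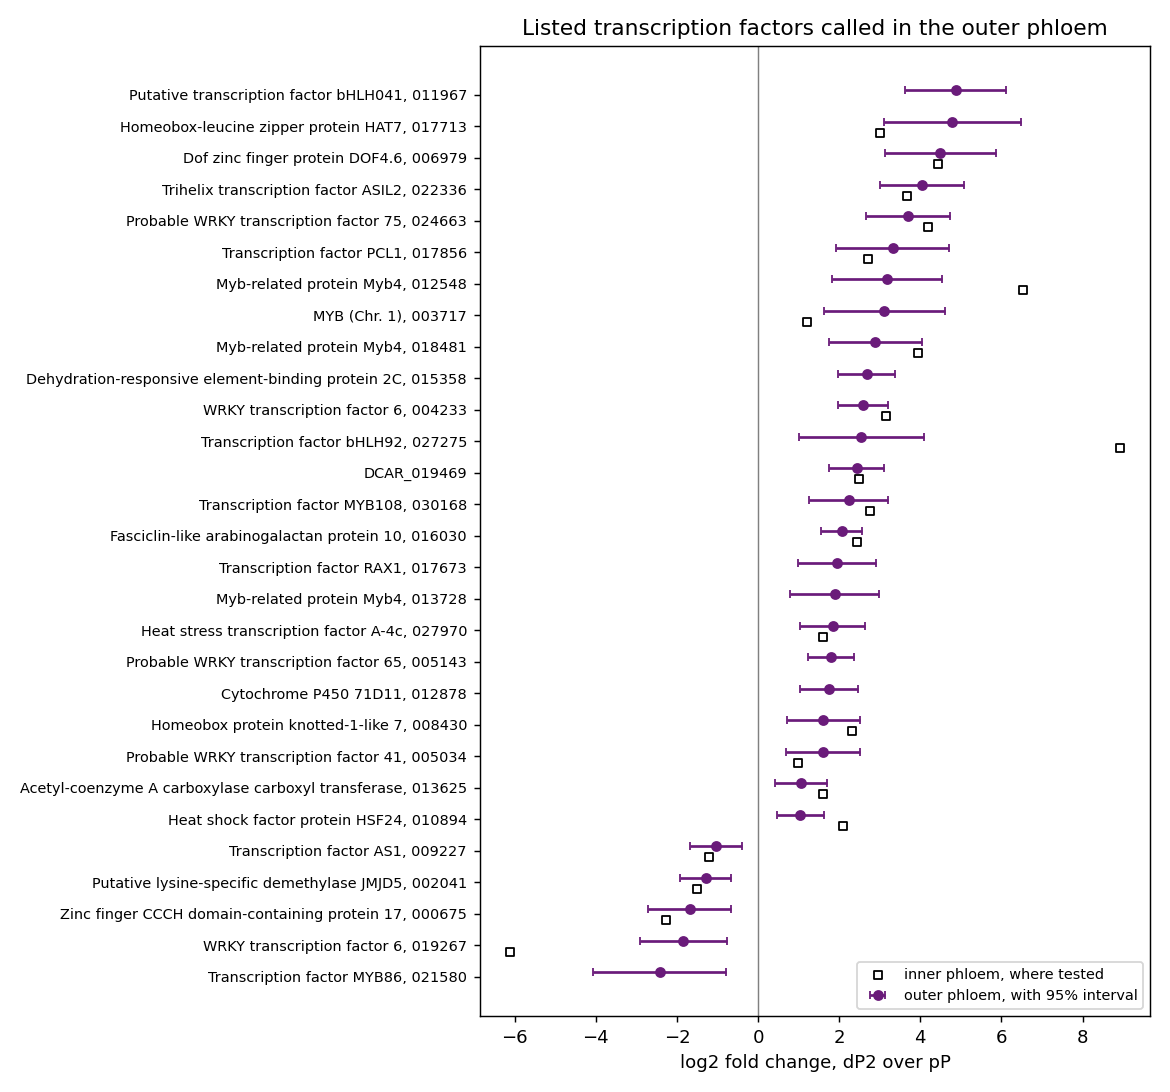
Log2FC of dP2 over pP (horizontal axis) for the 29 called genes of the study's transcription factor list, some of them with other annotations. Filled circles with 95% intervals show outer phloem, and open squares show inner phloem where the gene was tested. Outer phloem values run from 4.87 for bHLH041 to −2.42 for MYB86, with 24 above 0 and 5 below it.

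Both sets were also compared in the inner phloem of the same roots, which are other libraries. There 5232 of 17807 genes (29.4%) were called, 2785 higher (15.6%) and 2447 lower (13.7%) in dP2. Without pP replicate 1 there were 1605 higher and 1398 lower calls, and without dP2 replicate 2 there were 1298 lower calls. Of the genes called higher in the outer phloem 51.9% were called higher in the inner phloem, and these 1567 genes were 56.3% of the higher inner phloem calls. The filter on low values left 623 of the outer phloem genes untested there, and of the 2394 tested 65.5% were called higher. Of the genes called lower 53.9% were called lower in the inner phloem, and these 1183 genes were 48.3% of the lower inner phloem calls. Of the 2105 of them tested there 56.2% were called lower. Calls in opposite directions were made for 25 genes higher and 4 genes lower in dP2 outer phloem. The invertase gene DCAR_009482 was 1 of the 25.

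The other dark set was compared with the same pP outer phloem libraries. In dP1, which shares family and site with pP, edgeR called 32 of 17686 genes (0.181%), 16 higher (0.0905%) and 16 lower (0.0905%), and DESeq2 called 337 higher and 437 lower. Leaving out dP1 replicate 1 or 3 left 0 calls by edgeR, with 776 and 957 higher genes at an unadjusted p under 0.05, and leaving out pP replicate 3 left 1. The count for dP2 thus exceeded that for dP1 by edgeR and by DESeq2, which called 3690 higher and 2747 lower in dP2. Both comparisons share their pP libraries, and the difference between the dark sets was not tested here.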

How the data were processed

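RNA-seq libraries were made from outer and inner root phloem of 9 plants. Per the study's methods, the authors trimmed single-end reads with Trimmomatic 0.32, checked them with FastQC and aligned them with Bowtie2 for expression estimates by RSEM, using carrot annotation V1.0. The authors deposited RSEM expected counts, which are not normalised, and TPM, which are scaled for gene length and library size. RSEM divides reads among similar genes, so counts of near-identical genes are uncertain. Whether counting used strand is not given in the sources used here.

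After rounding of the expected counts, genes that reached 1 CPM in fewer than 3 of the 6 libraries were dropped and TMM scaling was applied. The test of dP2 against pP was the quasi-likelihood F test (edgeR 4.0.16, R 4.3.3), with Benjamini-Hochberg FDR called under 0.05. The standard error is the log2FC divided by the square root of F. Per-library CPM were normalised by TMM over all 18 libraries. Inner phloem and dP1 outer phloem were fitted likewise, and the outer minus inner difference in 1 fit of all 18 libraries. Other tools were DESeq2 1.42.0, limma 3.58.1 and matplotlib 3.10.9. The steps were tested on simulated counts in which far fewer genes were changed than were called here. That test therefore cannot show how scaling and FDR behave when so many genes differ. The common biological coefficient of variation was 0.353, and totals of 6918267 to 9133313 counts limit low genes first. Alternatives were other size factors, tests, filters, count rounding, prior counts, a replicate block, leaving out each library, and, chosen after seeing the data, removing the most abundant gene.

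Groups and replicate numbers came from the sample labels. The genes named are the pathway genes, transporters, regulators, actin and invertase of the study, up to 4 called members of each other list by size of log2FC, up to 8 described genes in each direction that averaged 3 or more on the log2 CPM scale without overlap, and up to 2 undescribed genes in each direction. The members and lists were chosen with earlier results of these data known. Of the 32113 identifiers, 0 matched the RefSeq gene table, so gene descriptions, positions and primers came from the study's supplementary tables and lists built on RefSeq descriptions were not used here.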

Additional observations from a re-analysis of the deposited data

Results flagged for a closer look

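In 3 named genes the dP2 over pP difference was not the same in the outer and the inner phloem, by a test of the difference itself in the fit of 18 libraries with edgeR. For the MADS-box gene DCAR_010757 the log2FC was −0.52 in outer and −3.42 in inner phloem, and the outer minus inner difference was 2.92 ± 0.56 (SE, FDR = 0.0261). For sucrose invertase DCAR_009482 the log2FC was 1.71 in outer and −2.34 in inner phloem, opposite in sign, and the difference was 4.08 ± 0.60 (SE, FDR = 0.00788). For WRKY6 DCAR_019267 the log2FC was −1.84 in outer and −6.11 in inner phloem, and the difference was 4.30 ± 0.95 (SE, FDR = 0.0432). This last gene had 0.449, 0.222 and 0 CPM in dP2 inner phloem, against 21.7, 10.2 and 17.03 in pP inner phloem. The 3 roots of each set gave both tissues, and with the root as a block 316 genes were called in this test. Leaving out 1 of the 12 libraries of these groups kept the call of DCAR_009482 each time, lost that of DCAR_010757 in 7 fits (FDR = 0.0512 to 0.0732) and lost that of DCAR_019267 in 10 (FDR = 0.0647 to 0.111).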

How the results depend on the processing

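The counts of dP2 over pP genes in the outer phloem stayed within 1.5 times of 3017 higher and 2196 lower under every alternative that kept all 6 libraries. With 1 library left out, the higher calls numbered 1995 to 2969 and the lower calls 1040 to 1917. In the inner phloem they numbered 1605 to 2488 higher and 1298 to 2139 lower, in the outer minus inner difference 54 (without pP outer phloem replicate 3) to 278 (without pP outer phloem replicate 2), and in dP1 over pP 0 to 15 higher and 0 to 57 lower, where edgeR had 727 to 1352 genes higher and 839 to 1308 lower at an unadjusted p under 0.05 in those fits. DESeq2 called 816 genes in the outer minus inner difference, and 337 higher and 437 lower in dP1 over pP. The cause was not tested.

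The replicate numbers name different plants in dP2 and pP. Libraries of the same number had deviations from their set mean correlated at 0.163, 0.038 and 0.076. Deviations from a mean of only 3 libraries are tied to each other. These values therefore cannot show whether libraries of the same number shared more than the number, which was not tested. In the outer phloem 2 of 3 dP2 libraries correlated best with their own number. With the replicate block, 2746 genes were higher and 1731 lower in outer phloem, 2324 and 2041 in inner phloem, and 0 and 3 in dP1 over pP, with 1097 and 1190 at an unadjusted p under 0.05. The block gave F3H DCAR_009483 an FDR of 0.0489 and C3H17 DCAR_000675 one of 0.0614. The fit of 18 libraries gave DCAR_010688 an FDR of 0.107 and AS1 DCAR_009227 one of 0.102.

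The ABC-C gene DCAR_010639, at −0.01, turned to 0.0212 with RLE size factors, 0.0208 with DESeq2, 0.0214 with the replicate block and 0.0413 in the fit of 18 libraries. With 1 library left out the log2FC ranged from −0.16 to 0.30 for DCAR_010639, −0.0468 to 1.70 for DCAR_000385, −0.26 to 1.43 for DCAR_006772, −0.79 to 0.10 for DCAR_010572, −0.31 to 0.34 for DCAR_014032, −0.0223 to 1.76 for DCAR_021269 and −0.0397 to 1.26 for DCAR_030786. With all 6 libraries none of these 7 was called, and DCAR_000385 was called without pP replicate 2. With 3 roots per set, and no family or site repeated across sets apart from dP1 and pP, the p-values measure the spread between these plants alone.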
